A study of Mus musculus with 4 samples.

Results

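The 41 genes described here encode enzymes and membrane proteins of the lysosome and the machinery of autophagy. They were taken by name from a list of the pathway's genes: 10 lysosomal hydrolases or their activators, 5 proteins of the lysosomal membrane or of cholesterol export, 2 transcription factors, and 24 genes of autophagosome formation and cargo capture. All 41 were found by Ensembl identifier among the 51826 genes of the count table, and all 41 were among the 15467 genes with enough counts to be tested. The cells were C2C12, an established line of mouse myoblasts, treated in growth medium. The groups were vehicle for 6 h (2 libraries) and recombinant GDF10 protein for 6 h (2 libraries), at a dose that the labels do not give. GDF10 is a secreted member of the TGF-beta superfamily. Both groups share the same line and medium, and the labels name no genetic change.

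Autophagy carries cytoplasm to the lysosome. The ULK1 kinase complex starts it, the class III PI3-kinase complex with beclin 1 marks the membrane from which the autophagosome grows, and ubiquitin-like conjugation by the ATG proteins attaches ATG8 proteins (the LC3 and GABARAP families) to that membrane. Receptors such as p62 bind cargo on one side and ATG8 proteins on the other. The autophagosome then fuses with the lysosome, where cathepsins and other acid hydrolases degrade its content, and the transcription factors TFEB and TFE3 can raise the expression of many genes of both systems. In skeletal muscle this route removes damaged organelles and stored glycogen, and loss of the lysosomal glycogen enzyme acid alpha-glucosidase causes Pompe disease.

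The vehicle libraries held 35597310 and 29641165 counts and the GDF10 libraries 29944193 and 35057429, so that 3 counts corresponded to 0.0840 to 0.101 CPM, that is, counts scaled to library size. The muscle markers Des, Itga7 and Myod1 were expressed in all 4 libraries, Myod1 at 53.6 to 57.5 CPM. Pax7, a marker of quiescent muscle stem cells, had 0 counts throughout, although the cell type label reads muscle stem cells. A protocol label names longissimus dorsi, a back muscle, but summed markers of mature fibres reached 87.0 to 93.7 CPM with vehicle and 98.9 to 100.5 with GDF10, mostly Actn3, while Myh2 and Myh4 were at or near 0. The 8 macrophage and leukocyte markers, of interest because those cells are rich in lysosomes, summed to 22.5 to 27.0 CPM with vehicle and 24.4 to 27.0 with GDF10, mostly Cd14, and Adgre1 had 0 counts. In bulk RNA, fewer cells with a transcript and less of it per cell cannot be told apart. The labels speak of biological replicates without naming separate cultures, so a p-value here reflects only how far these 4 libraries vary, which may be technical.

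By CPM, without correction for length, some lysosomal genes were among the most abundant transcripts of these myoblasts. The 41 genes held 1.07% to 1.15% of all counts in each library. Psap, which encodes the precursor of the saposins that help enzymes reach their lipid substrates, stood at 2236 and 2267 CPM with vehicle and 2368 and 2373 CPM with GDF10, and ranked 19 among all 15467 genes tested. Ctsb, the gene of the cysteine protease cathepsin B, ranked 36, and Npc2, which encodes a cholesterol carrier of the lysosome lumen, ranked 100. Other lysosomal genes ranked far lower, such as Npc1 at 3649 and Gla at 6490.

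Levels of different genes were compared as CPM per kilobase of merged exons, over the 4 libraries. The highest was Psap, at 842 ± 25.4 CPM per kilobase (mean ± SD, n = 4 libraries of both groups). Lamp1, a heavily glycosylated protein of the lysosomal membrane, followed at 322 ± 20.2. Ctsd, the aspartic protease cathepsin D, at 297 ± 16.3, and Ctsb, at 288 ± 8.84, lay within that spread of each other. Sqstm1, which encodes the cargo receptor p62, stood at 205 ± 20.8 and Npc2 at 169 ± 7.95. The lowest levels were those of Rb1cc1, the scaffold FIP200 of the ULK1 complex, at 2.06 ± 0.246, Tfeb at 3.01 ± 0.339, Uvrag at 3.59 ± 1.42 and Atg14 at 3.90 ± 0.319 CPM per kilobase. The last 3 of these lay within the SD of Uvrag. The same 6 genes were highest when the length of the principal transcript was used instead of merged exons. As a ratio, that length moved Wipi2 most, from 11.03 to 59.3 CPM per kilobase, then Mcoln1, from 6.99 to 25.6. It took Map1lc3b from 16.4 to 48.8.

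**Figure D1:**
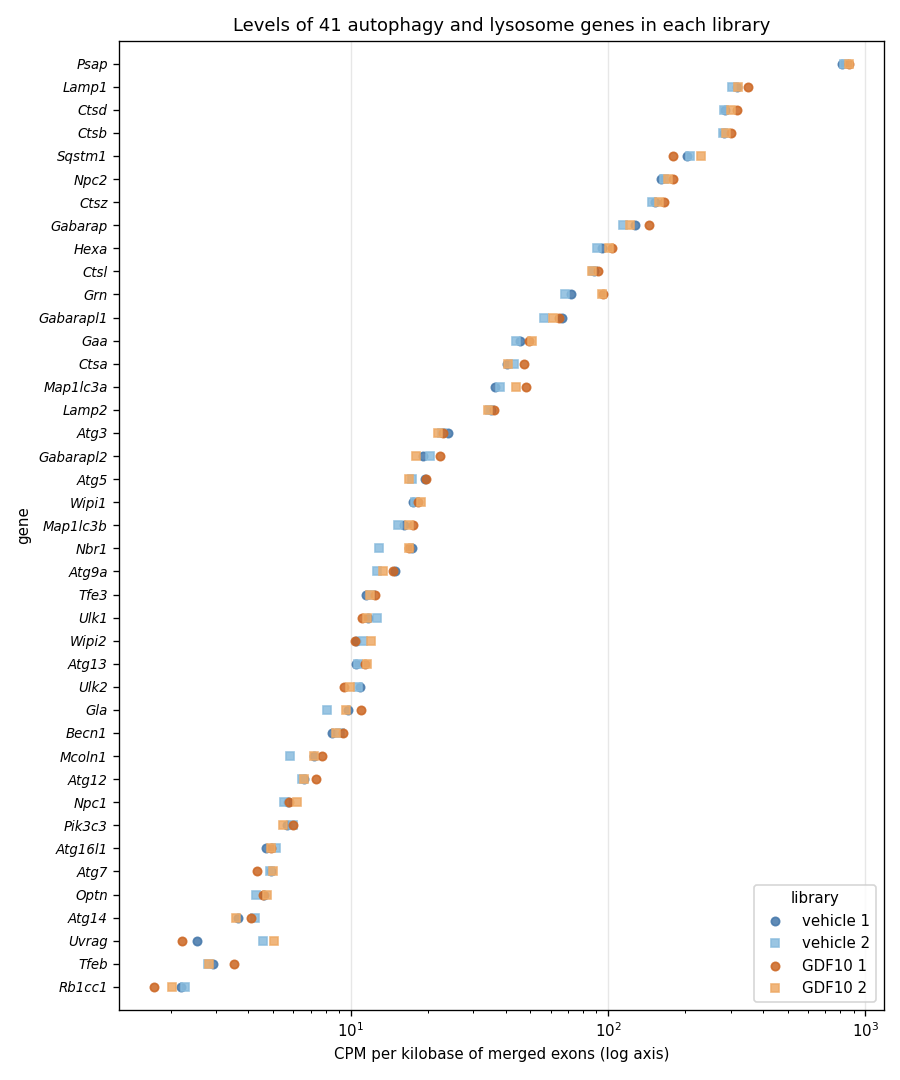
Level of each of the 41 genes in each library, as CPM per kilobase of merged exons on a log axis, with genes ordered by their mean; circles are replicate 1 and squares replicate 2 of vehicle (blue) and GDF10 (orange). Psap is highest, at a mean of 842, Rb1cc1 lowest, at 2.06, and for most genes the 4 libraries lie close together, with Uvrag split by replicate.

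The comparison asked whether 6 h with GDF10 altered the transcripts of this system. No gene of the 41 passed the test. The gene nearest to it was Grn, the progranulin gene, 1.36-fold higher with GDF10, and the next was Map1lc3a, the LC3A gene, 1.24-fold higher. Hydrolase and membrane protein genes of the lysosome had small positive differences, all 15 above zero in the fit to all 4 libraries, while 3 of the 4 genes of the ULK1 complex had negative ones. In edgeR's quasi-likelihood test with Benjamini-Hochberg adjustment over all 15467 genes, 0 of the 41 passed an adjusted p of 0.05, where 25 genes, or 0.162%, passed over the whole table (0.084% higher and 0.0776% lower with GDF10). An unadjusted p under 0.05 was reached by 2 of the 41, both higher with GDF10 and none lower, against 5.94% of all genes (2.44% higher and 3.49% lower). DESeq2's Wald test called 1 of the 41, Grn, against 0.42% of all genes, and limma-voom called 0, against 0.0711%.

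Fold changes were small and narrowly bounded. The log2 fold change of GDF10 over vehicle was positive in 31 of the 41 genes and negative in 10, with a median of 0.07, or 1.05-fold. Over all genes tested 50.8% were positive, with a median of 1.002-fold. The 95% interval lay within 1.5-fold in either direction for 39 of the 41 genes, beside 60.9% of all genes tested. The exceptions were Grn, whose interval ran from 0.28 to 0.61 on the log2 scale, and Uvrag, whose replicates disagreed. The groups did not overlap in 18 of the 41 genes, beside 38.2% of all genes tested. Both GDF10 libraries lay above both vehicle libraries in 15 of the 41, against 18.8% of all genes tested, and below them in 3, against 19.4%.

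**Figure D2:**
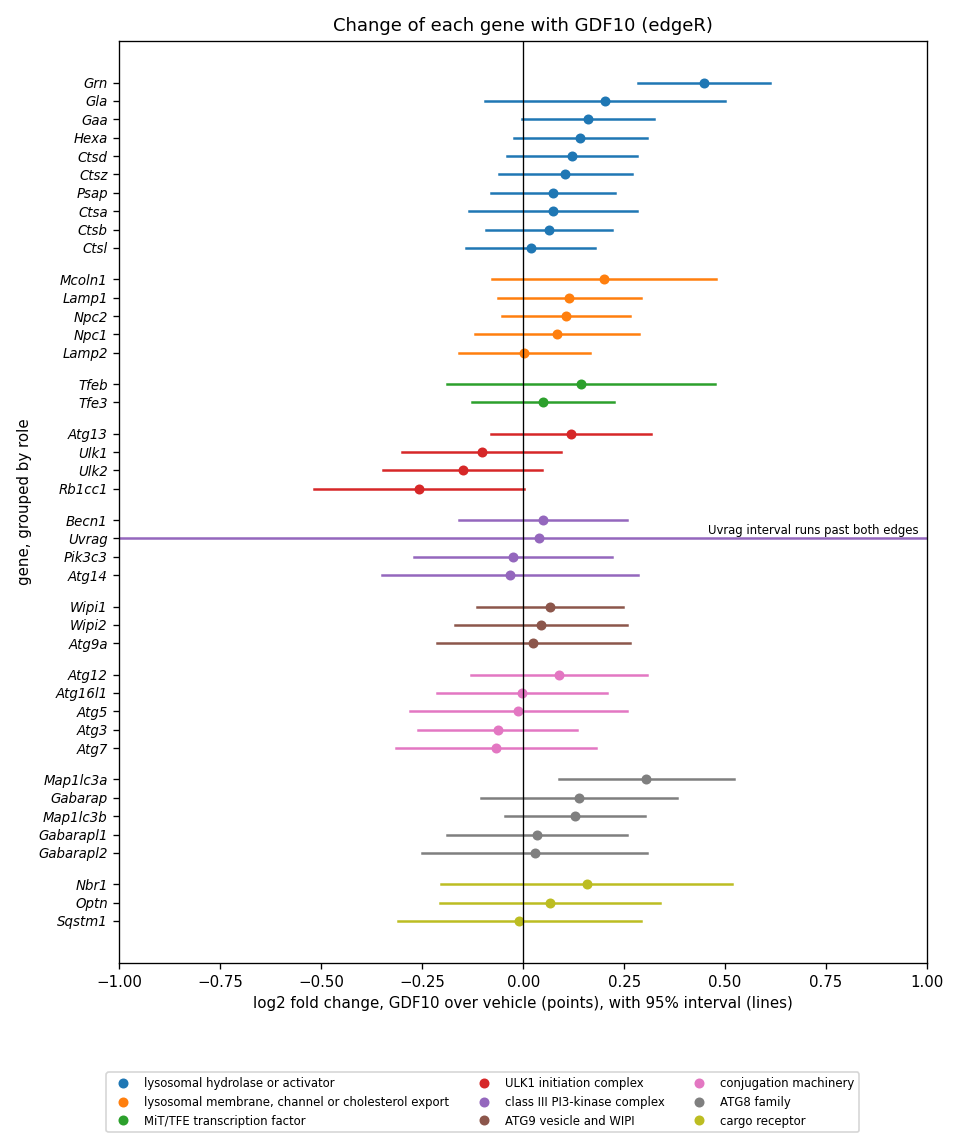
Log2 fold change of GDF10 over vehicle for the 41 genes (points) with 95% intervals (lines) from edgeR, grouped and coloured by role. Intervals of Grn and Map1lc3a lie above zero, and the interval of Uvrag runs past both edges of the plot; no gene passed after adjustment.

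The positive differences were uneven between libraries. Relative to each gene's mean over the 4 libraries, the median of the 41 genes was −0.03 and −0.04 on the log2 scale in the vehicle libraries, 0.06 in GDF10 replicate 1 and 0.0036 in GDF10 replicate 2. Without GDF10 replicate 1 the median log2 fold change of the 41 genes was 0.04, with 26 positive, and without GDF10 replicate 2 it was 0.09, with 33 positive. Across all genes tested, log2 fold change and merged exon length had a Spearman correlation of −0.26, and across the 41 genes one of −0.27. These are descriptions over genes of the same 4 libraries. After a trend on exon length was taken out of every library, the median of the 41 genes was 0.09, beside 0.02 for all genes tested.

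**Figure D3:**
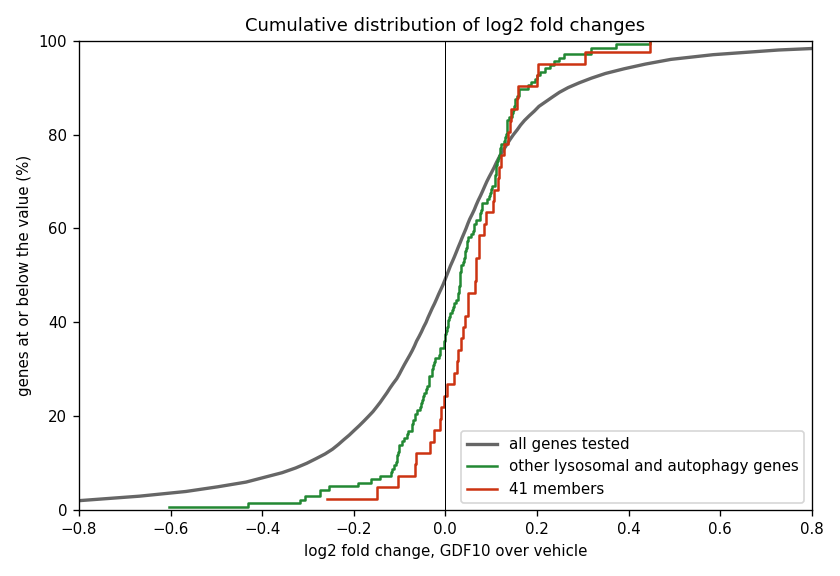
Share of genes (%) at or below each log2 fold change of GDF10 over vehicle, for all genes tested (grey), the 41 genes (red) and 136 other lysosomal and autophagy genes (green). The red curve crosses 50% at 0.07. It spans a narrower range than the grey curve, which covers 15467 genes with a larger median SE (0.133 against 0.089).

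Genes of lysosomal hydrolases and their activators all had positive fold changes, 10 of 10, with a median of 0.11 on the log2 scale, and none passed the test. Without GDF10 replicate 1, 8 of the 10 were positive. Grn (ENSMUSG00000034708; mm10 chromosome 11, 102430315 to 102437048, plus strand) encodes progranulin, a secreted glycoprotein that is carried to lysosomes, where it is cut into granulins. Its level was 249.9 and 236 CPM with vehicle and 333 and 329 CPM with GDF10. Both GDF10 libraries stood well above both vehicle libraries, and replicates of a group differed little. Mean levels were 243 ± 9.77 and 331 ± 2.64 CPM (SD, n = 2 in each), and the log2 fold change was 0.45 (SE 0.07).

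Grn ranked 39 of 15467 genes by its p-value of 0.000322 in edgeR's test, which became 0.128 after adjustment. It passed with DESeq2 (adjusted p = 0.000141) and in edgeR's fit without GDF10 replicate 2 (adjusted p = 0.0417). Without that library the GDF10 group is a single library, assumed to vary as the vehicle pair does, and 0.996% of all genes were called. Over 16 alternative settings its log2 fold change stayed between 0.39 and 0.49, while its adjusted p ran from 0.000141 to 0.833. Grn shares 68 exon bases with Fam171a2 on the opposite strand, which had 1032 to 1323 counts per library. For the summed counts of both genes edgeR gave a log2 fold change of 0.39 (adjusted p = 0.190).

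Gaa, the acid alpha-glucosidase that degrades glycogen, stood at 218 and 210.3 CPM with vehicle and 235 and 243 CPM with GDF10 (log2 fold change 0.16, SE 0.07, adjusted p = 0.825). Hexa, the alpha subunit of beta-hexosaminidase, which degrades gangliosides, stood at 189 and 181 CPM with vehicle and 207 and 201 CPM with GDF10 (log2 fold change 0.14, SE 0.07, adjusted p = 0.825). In both genes the groups did not overlap, and the gap between them exceeded the difference within either pair. Ctsd stood at 673 and 664 CPM with vehicle and at 749 and 706 CPM with GDF10 (log2 fold change 0.12, SE 0.07). Ctsz, the gene of the carboxypeptidase cathepsin Z, stood at 220.2 and 213 CPM with vehicle and at 238 and 228 CPM with GDF10 (log2 fold change 0.10, SE 0.07). Groups were separate in these protease genes too, and their adjusted p-values were 0.833 and 0.845. The log2 fold change of Ctsd was 0.078 without GDF10 replicate 1, and that of Ctsz 0.064 with the exon length trend removed.

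Gla, the alpha-galactosidase A gene, had overlapping groups, at 31.9 and 26.5 CPM with vehicle and 35.97 and 31.3 CPM with GDF10 (log2 fold change 0.20, 95% interval −0.10 to 0.50). Its vehicle pair differed more than the group means did, and the fold change ran from 0.076 without vehicle replicate 2 to 0.34 without vehicle replicate 1. For Psap, with the highest counts of the 41, the log2 fold change was 0.07 (95% interval −0.08 to 0.23). Ctsb had 1714 and 1690 CPM with vehicle and 1813 and 1747 with GDF10 (0.06, −0.09 to 0.22). Ctsl, which encodes cathepsin L, and Ctsa, the protective protein cathepsin A, had overlapping groups and log2 fold changes of 0.02 and 0.07. A difference of more than about 1.2-fold thus lay outside the interval for Psap and Ctsb.

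**Figure D4:**
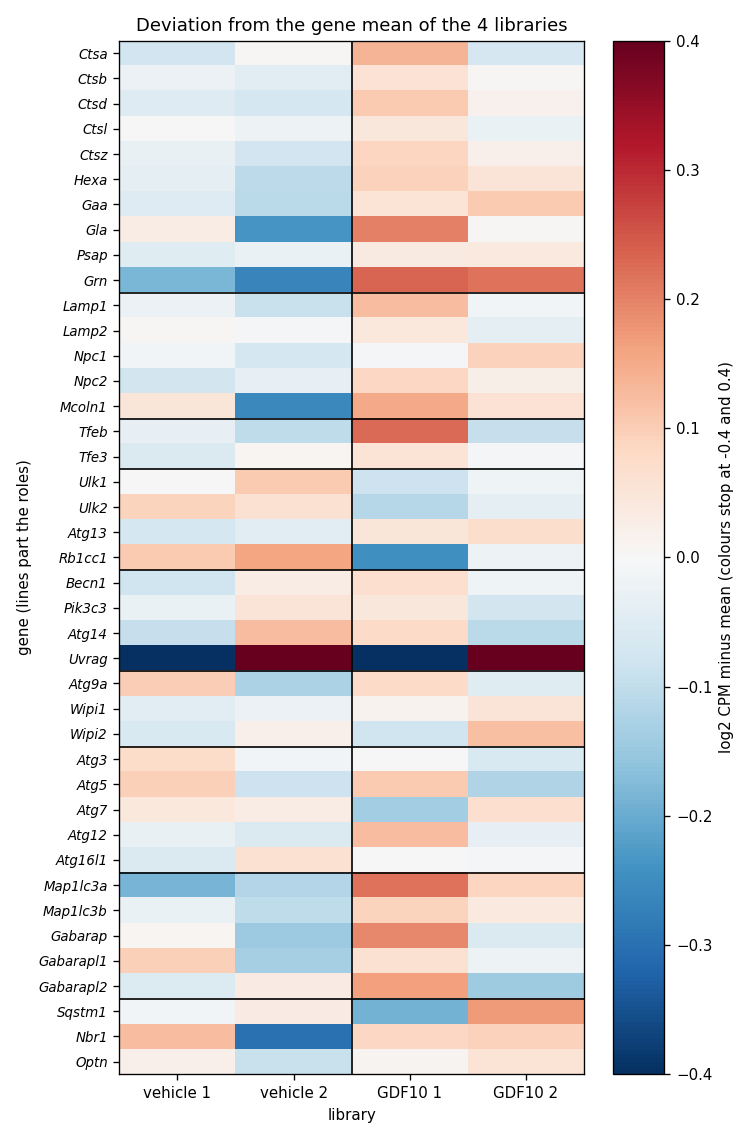
Log2 CPM of each gene in each library minus the gene's mean over the 4 libraries, with colours that stop at −0.4 and 0.4; horizontal lines part the roles and the vertical line parts the groups. Grn is low in both vehicle libraries and high in both GDF10 libraries, while Uvrag is low in replicate 1 and high in replicate 2 of each group.

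The 5 genes of the lysosomal membrane and of cholesterol export also had positive fold changes, with a median of 0.11, and none passed the test. Without vehicle replicate 2 the median was 0.055 with 4 of 5 positive, and 4 were positive too without GDF10 replicate 1, with unscaled total counts and with a filter at 1 CPM. Mcoln1, the calcium channel mucolipin 1, stood at 54.4 and 44.0 CPM with vehicle and 58.3 and 54.7 CPM with GDF10 (log2 fold change 0.20, SE 0.12, adjusted p = 0.834). The lower GDF10 library lay just above the higher vehicle library, and the fold change ran from 0.055 without vehicle replicate 2 to 0.36 without vehicle replicate 1. Npc2 stood at 871 and 895 CPM with vehicle and 969.7 and 932 CPM with GDF10 (log2 fold change 0.11, SE 0.07, adjusted p = 0.845). Lamp1 stood at 846 and 809 CPM with vehicle and 937 and 855 CPM with GDF10 (log2 fold change 0.11, SE 0.08, adjusted p = 0.845). In Lamp1 the lower GDF10 library lay closer to the vehicle pair than to the other GDF10 library, without which the log2 fold change was 0.047. Npc1, the membrane partner of Npc2 in cholesterol export, had a log2 fold change of 0.08, and Lamp2, needed for fusion of autophagosomes, had a 95% interval of −0.16 to 0.17.

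TFEB and TFE3, the transcription factors that bind promoters of lysosomal genes, are kept in the cytoplasm when nutrients are plentiful, a step that RNA levels do not show. Tfeb was low, at 16.6 and 15.8 CPM with vehicle and 19.9 and 16.0 CPM with GDF10 (log2 fold change 0.14, 95% interval −0.19 to 0.47). Tfe3 was more abundant, at 106 and 111 CPM with vehicle and 115 and 110.2 CPM with GDF10 (0.05, −0.13 to 0.22). The groups overlapped in both.

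The DNA element that these factors recognise, known as CLEAR, contains the letters GTCACGTG or, on the other strand, CACGTGAC. RefSeq promoter windows of build GRCm38.p6 run from 250 bases before to 50 bases after a RefSeq start, and a gene can have several. They were matched by symbol for 33 of the 41 genes (not for Atg12, Atg16l1, Becn1, Ctsb, Map1lc3a, Npc1, Pik3c3 and Rb1cc1). The 8 letters were found in 8 of these 33 genes, or 24.2%. Of all 27025 genes with a window 2.55% held them, as did 20 of 116 other lysosomal and autophagy genes with a window. The 6 letters CACGTG, which lie within the 8, were in 11 of the 33 genes and in 8.09% of all genes with a window. The sites are shown because they mark which members carry the letters; each is 30 bases of the gene's own strand, 5′ to 3′, with the matched letters in capitals.
Lamp1, chr8:13159122-13159151, plus strand: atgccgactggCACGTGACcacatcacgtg
Mcoln1, chr8:3500435-3500464, plus strand: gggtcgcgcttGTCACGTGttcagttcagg
Ctsd, chr7:142387907-142387936, minus strand: cgcccgcgtctCACGTGACccgttgagggc
Ctsa, chr2:164833748-164833777, plus strand: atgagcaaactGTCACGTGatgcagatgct
Gla, chrX:134601183-134601212, minus strand: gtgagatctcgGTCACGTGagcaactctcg
Atg3, chr16:45158722-45158751, plus strand: ggcctccttttGTCACGTGtcctgggagag
Atg7, chr6:114670951-114670980, plus strand: ccatattggtgGTCACGTGtgcagtaagtg
Atg14, chr14:47568417-47568446, minus strand: aaacaaaatccCACGTGACtggccctgagc

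Mcoln1, Ctsd, Ctsa and Atg3 held a second match in the same window. Counted from the RefSeq start of the window, the match shown began at −28 in Lamp1, −73 in Mcoln1 and −196 in Gla. That start can differ from the gene start of the exon annotation. The Atg7 window, at 114670846 to 114671145, lies inside the gene, which is annotated from 114643097 to 114860614. With GDF10, 5 of the 8 genes that hold the letters had positive fold changes, with a median of 0.09 on the log2 scale and a range of −0.07 to 0.20. Of the 25 genes with a window but without the letters, 21 had positive fold changes, with a median of 0.07 and a range of −0.15 to 0.45. Grn was among the latter. A match of letters is not a measured binding site, and none was tested here.

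Of the 4 genes of the ULK1 complex, which starts autophagy when nutrients are scarce, 3 had negative fold changes and 1 a positive one, with a median of −0.13, and none passed the test. Rb1cc1 (ENSMUSG00000025907; mm10 chromosome 1, 6206197 to 6276648, plus strand), the scaffold of the complex, stood at 32.3 and 33.5 CPM with vehicle and 25.4 and 29.6 CPM with GDF10. Both GDF10 libraries were lower, GDF10 replicate 1 by more. The log2 fold change was −0.26 (SE 0.11), and edgeR's p of 0.0521 became 0.825 after adjustment. It was −0.15 without GDF10 replicate 1 and −0.12 with the exon length trend removed, for this gene with the longest exons of the 41. Ulk2, a kinase of the complex, stood at 65.1 and 63.8 CPM with vehicle and 56.5 and 59.6 CPM with GDF10 (log2 fold change −0.15, SE 0.08, adjusted p = 0.833).

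Ulk1, the other kinase, stood at 76.1 and 81.9 CPM with vehicle and 71.9 and 75.2 CPM with GDF10 (log2 fold change −0.10, 95% interval −0.30 to 0.09). Atg13, the adaptor that joins the kinase to the scaffold, went the other way, at 45.8 and 46.6 CPM with vehicle and 49.7 and 50.5 CPM with GDF10 (log2 fold change 0.12, SE 0.08, adjusted p = 0.848). The groups were separate in all 4 genes of this complex, as in 38.2% of all genes tested. In each of the 16 alternative settings 1 of the 4 fold changes was positive and 3 were negative, and with the exon length trend removed their median was −0.084.

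The class III PI3-kinase complex makes the lipid signal on which the autophagosome is built. Becn1 (beclin 1), Pik3c3 (the VPS34 kinase) and Atg14 (the subunit that directs the complex to autophagy) had overlapping groups and log2 fold changes of 0.05, −0.03 and −0.03. Uvrag (ENSMUSG00000035354; mm10 chromosome 7, 98885021 to 99141141, minus strand), the subunit of the endosomal form of the complex, stood at 22.9 and 41.2 CPM with vehicle and 19.95 and 45.6 CPM with GDF10. Replicate 2 was 1.80-fold replicate 1 with vehicle and 2.29-fold with GDF10, while the group means, 32.0 ± 12.9 and 32.8 ± 18.1 CPM (SD, n = 2 per group), were close. The 95% interval around its log2 fold change of 0.04 ran from −2.28 to 2.35. The spread between replicates of Uvrag was the largest of the 41 genes, and it is named here because of that value.

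**Figure D5:**
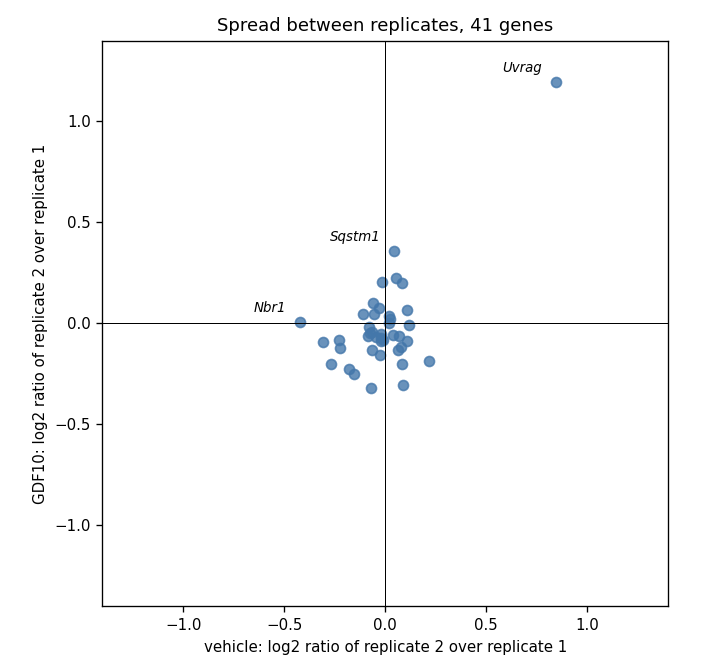
Log2 ratio of replicate 2 over replicate 1 in vehicle (horizontal axis) and in GDF10 (vertical axis) for the 41 genes, 1 point per gene. Uvrag lies apart at the upper right, at 0.84 and 1.19, and the next largest spreads are those of Nbr1, in vehicle, and Sqstm1, in GDF10.

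Later steps of autophagosome growth showed little difference. Atg9a, the lipid scramblase of the vesicles that seed the membrane, and the phosphoinositide-binding genes Wipi1 and Wipi2 had log2 fold changes of 0.02, 0.07 and 0.04. Wipi1, which binds the lipid made by the PI3-kinase, was 77.3 and 78.5 CPM with vehicle and 80.5 and 82.6 CPM with GDF10, without overlap. In the conjugation machinery, Atg7 (the activating enzyme), Atg3 (the conjugating enzyme for ATG8 proteins) and Atg5 had log2 fold changes of −0.07, −0.06 and −0.01. Atg12, the ubiquitin-like partner of ATG5, had one of 0.09, and Atg16l1, which places that conjugate on the membrane, a 95% interval of −0.21 to 0.21. All 5 had overlapping groups, and each interval excluded a change of 1.5-fold.

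The ATG8 proteins are the small modifiers that coat the autophagosome. All 5 genes had positive fold changes, with a median of 0.13, and none passed the test. Without GDF10 replicate 1 the median was 0.0077 with 3 of 5 positive, and without vehicle replicate 2 it was 0.073 with 4 positive. With counts summed over genes that share exon bases the median was 0.038. That median is the value of Map1lc3b after the counts of a neighbouring gene, Zcchc14, were added to it. Map1lc3a (ENSMUSG00000027602; mm10 chromosome 2, 155276297 to 155278073, plus strand) stood at 43.1 and 45.1 CPM with vehicle and 56.9 and 52.0 CPM with GDF10. The groups did not overlap, and GDF10 replicate 1 was highest. Mean levels were 44.1 ± 1.43 and 54.4 ± 3.45 CPM (SD, n = 2 in each), and the log2 fold change was 0.30 (SE 0.09). EdgeR's p of 0.0124 became 0.801 after adjustment, and the adjusted p was 0.169 or higher in each of the 16 alternatives.

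Map1lc3b, the LC3B gene most used as an autophagosome marker, stood at 121 and 115 CPM with vehicle and 131 and 127 CPM with GDF10 (log2 fold change 0.13, SE 0.07, adjusted p = 0.834). Summed with Zcchc14, which shares 58 exon bases on the opposite strand and had about as many counts, the log2 fold change was 0.038. This sum holds all counts of Zcchc14, so it does not show how many reads the genes share. Gabarap stood at 235 and 211 CPM with vehicle and 267 and 224 CPM with GDF10 (0.14, SE 0.10, adjusted p = 0.848). Its groups overlapped, since vehicle replicate 1 exceeded GDF10 replicate 2, and the fold change was 0.0077 without GDF10 replicate 1 and 0.26 without GDF10 replicate 2. Gabarapl1 stood at 134 and 114 CPM with vehicle and 130.4 and 123 CPM with GDF10 (0.03, SE 0.09, adjusted p = 0.962). Gabarapl2 stood at 44.5 and 47.3 CPM with vehicle and 51.8 and 41.9 CPM with GDF10 (0.03, SE 0.12, adjusted p = 0.977). In these 2 genes the values of the groups were mixed, and the sign changed when single libraries were left out.

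Per kilobase of merged exons, Gabarap made up 47.5% ± 1.03 of the summed level of the 5 ATG8 genes (SD, n = 4 libraries), Gabarapl1 23.3% ± 1.32, Map1lc3a 15.6% ± 1.33, Gabarapl2 7.47% ± 0.611 and Map1lc3b 6.15% ± 0.242. The share of Map1lc3b was 13.5% when the principal transcript set the length, above the 12.2% of Map1lc3a. The order of the LC3 genes thus depended on the length used, and that of Gabarap and Gabarapl1 did not. Map1lc3b and Gabarapl2 each have processed pseudogenes of at least 95% identity over 300 bases or more, so reads may be split. The largest counts were 49 to 65 per library in Gm6055, a copy of Map1lc3b, and 8 to 14 in Gm3724, a copy of Gabarapl2. Of the other members, Rb1cc1 has such a copy in Gm13961, with at most 2 counts, and Uvrag shares stretches of 342 to 345 bases with Klhl20, Mettl6, Txndc16 and 3 further gene models.

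Cargo receptors link ubiquitin-marked cargo to ATG8 proteins. Sqstm1, also a target of the antioxidant factor NRF2, stood at 682 and 702 CPM with vehicle and 602 and 772 CPM with GDF10, so that the GDF10 libraries lay on either side of the vehicle pair. Its log2 fold change was −0.01 (95% interval −0.31 to 0.29). Nbr1 stood at 119 and 88.9 CPM with vehicle and 116 CPM in both GDF10 libraries (log2 fold change 0.16, 95% interval −0.20 to 0.52), with vehicle replicate 2 apart from the rest. Optn, the optineurin gene, was lower, at 16.0 to 17.7 CPM over the 4 libraries, with a log2 fold change of 0.07.

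Other genes of the same pathways were taken from a list of 143, of which 136 were tested. None passed in edgeR's test, against 0.162% of all genes, and DESeq2 and limma-voom called 0 as well. An unadjusted p under 0.05 was reached by 4 higher and 2 lower, against 5.94% of all genes in both directions. Fold changes were positive in 85 and negative in 51, with a median of 0.03 on the log2 scale. Further lysosomal enzymes were positive in 31 of 36, with a median of 0.08. Naglu, which degrades heparan sulfate, stood at 46.8 and 46.3 CPM with vehicle and 57.4 and 58.7 CPM with GDF10 (log2 fold change 0.32, adjusted p = 0.700 in edgeR's test). Lipa, the lysosomal acid lipase, stood at 63.1 and 59.2 CPM with vehicle and 73.8 and 69.5 CPM with GDF10 (0.23, adjusted p = 0.825). In both the groups were separate.

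Subunits of the V-ATPase, the proton pump that acidifies the lysosome, were positive in 12 of 17, with Atp6v1b2 and Atp6ap1 at log2 fold changes of 0.16 and 0.22. Of other membrane and sorting genes 13 of 19 were positive, but the genes of lowest p were negative: Gnptab, which makes the mannose 6-phosphate tag of lysosomal enzymes (−0.27), and the amino acid sensor Slc38a9 (−0.32). Among nutrient sensing genes 10 of 17 were positive, with Fnip1, a partner of folliculin, at −0.27 and Lamtor2, of the Ragulator complex, at 0.19. Other genes of autophagosome formation were mostly negative, 15 of 21, with Tmem41b, an endoplasmic reticulum scramblase, at −0.43 and Atg101, of the ULK1 complex, at 0.18. Tex264, a receptor for the endoplasmic reticulum, stood at 0.32 and Tax1bp1, a ubiquitin receptor, at −0.16. Genes of autophagosome fusion were positive in 7 of 15, and Vps11 and Ykt6 had log2 fold changes of 0.11 and 0.07. The adjusted p of each gene named in these sentences was at least 0.815 in edgeR's test.

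Reads of some members may have been counted for other genes. Of the 41 genes 17 share exon bases with another gene of the table, 3 of them on the same strand. In 7 the neighbour's total count, over all its exons and not only the shared bases, came to more than 5% of the member's count. These were Grn with Fam171a2, Ctsa with Pltp, Ctsb with Fdft1, Ctsz with Nelfcd, Map1lc3b with Zcchc14, Npc1 with Rmc1, and Atg9a with Ankzf1 and Gm29253. How overlapping reads and strand were treated is not given in the sources used here. With counts summed over genes that share exon bases, the median log2 fold change of the 41 genes was 0.06 and 0 passed in edgeR's test.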

How the data were processed

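RNA of 4 libraries of C2C12 cells was sequenced, 2 with vehicle and 2 with GDF10. The authors deposited raw read counts, whole numbers for each Ensembl gene without normalization. The submitters' processing notes name the build mm10 and, in no stated order, HISAT2 2.0, Trimmomatic 0.36, StringTie 1.3.3b, FastQC 0.11.2, DESeq2 1.12.4 and bedtools 2.26.0. Counting tool, annotation and strand setting were not given in the sources used here.

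Of 51826 identifiers 51633 were found in GENCODE release M21 (mm10), which gave symbols, positions and exon lengths. Groups and replicate numbers came from sample titles. The test was run in edgeR 4.0.16 (R 4.3.3) on these counts: filterByExpr, TMM scaling, robust glmQLFit and glmQLFTest without covariates, Benjamini-Hochberg adjustment over all 15467 genes and a threshold of 0.05. CPM used effective library sizes. Standard errors and 95% intervals were derived from each F statistic. The test was tried on simulated counts with known changes. Transcripts were compared with blastn 2.17.0. Alternatives used limma 3.58.1 and DESeq2 1.42.0.

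The members and lists were chosen with earlier results of these data known. Fully described are called members, the 14 of lowest p and the ATG8 family; of each further list, called genes and the 2 of lowest p. Highest and lowest members per length are named too. Uvrag, genes at 0 counts and those of the closing section were chosen after their values were seen.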

Additional observations from a re-analysis of the deposited data

How the results depend on the processing

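Counts of called genes depended on the test. Over all genes 25 passed, against 65 with DESeq2, 11 with limma-voom, 9 without robust estimates, 13 with counts summed over genes sharing exon bases, and 24 to 154 when 1 library was left out (40 lacking vehicle replicate 2, 91 lacking GDF10 replicate 1 and 154 lacking GDF10 replicate 2). The count of members was 0, with 1 (Grn) under DESeq2 and 0 to 1 when 1 library was left out, again Grn, without GDF10 replicate 2. Of the 143 other pathway genes 0 to 2 passed when 1 library was left out: Atp6v0c without GDF10 replicate 1, and Atp6v1e1 and Rubcn without GDF10 replicate 2. The median log2 fold change of the 41 genes stayed between 0.04 and 0.09 over 16 alternatives. Each of these medians differed from the 0.07 of edgeR's main fit by less than the SD between replicates (0.029). For fits that left 1 library out this was nearly fixed in advance, because the SD comes from differences between the same libraries. The comparison therefore does not test stability.

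Of 288 values of 18 single members under alternatives, 279 kept their direction and their side of the threshold and 7 changed sign. Of these 18 members 14 were taken for their lowest p, and all 7 sign changes fell in Gabarapl1, Gabarapl2 and Uvrag. The count therefore does not describe all 41 genes. With 1 library left out at a time, the log2 fold change ran from −0.075 to 0.15 for Gabarapl1, from −0.13 to 0.17 for Gabarapl2 and from −0.68 to 0.52 for Uvrag, which was also −0.022 with the replicate block. The cause was not tested. The labels do not say that replicate numbers pair the libraries. With the number as a block 23 genes and 0 members passed. Deviations of same-numbered libraries correlated at 0.07 over all genes tested and at 0.66 over the 41 genes, or 0.15 without Uvrag. With 2 libraries a group, a change can be missed. Grn, at 1.36-fold with an SE of 0.07, did not pass in edgeR's test, and larger changes may fail too.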

Other observations

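Several genes of the pathways were not detected. Ctsc (cathepsin C), Tfec (a TFEB relative of macrophages), Rragb (a Rag GTPase) and Lamp5 had 0 counts in all 4 libraries, which allows up to 0.0840 to 0.101 CPM per library, a limit that covers counting error only. Ctss, a cathepsin of antigen-presenting cells, had 2 to 10 counts per library.

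In 3 genes chosen after their values were seen, the GDF10 libraries differed from each other more than the vehicle libraries did. Atp6v0c, the proton-carrying ring subunit of the V-ATPase, was at 130.2 and 130.3 CPM with vehicle and at 107 and 64.7 CPM with GDF10. Atp6v1e1, of its stalk, was at 88.2 and 87.8 CPM with vehicle and at 59.0 and 83.2 CPM with GDF10. Rubcn, an inhibitor of the PI3-kinase complex, was at 76.0 and 80.4 CPM with vehicle and at 52.9 and 78.1 CPM with GDF10. The lower GDF10 library was replicate 2 in the first and replicate 1 in the others. In Atp6v0c and Atp6v1e1 both GDF10 libraries lay below both vehicle libraries, as in 19.4% of all genes tested. Their log2 fold changes were −0.60 (SE 0.29) and −0.31 (SE 0.17), with adjusted p-values of 0.833 and 0.834 in edgeR's test.

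Uvrag was not the only gene to differ between replicates in the same direction in both groups. Of 15467 genes tested, 229 had at least 1.5 times as many CPM in replicate 2 as in replicate 1 in both groups. In 180 genes replicate 2 was lower by that factor in both. Uvrag was the only 1 of the 41 genes among these 409, which were 2.64% of the genes tested. Genes that differed by that factor in opposite directions were not counted. A shared effect of replicate number was not tested. Gm29253, a gene model that shares 1832 exon bases with Atg9a on the same strand, counted 6 and 9 reads in replicate 1 of vehicle and GDF10, and 457 and 506 in replicate 2. Summed with Gm29253, Atg9a stood at 85.7 and 88.6 CPM with vehicle and at 84.4 and 91.8 CPM with GDF10, against 85.5 and 73.1 and 84.1 and 77.3 alone.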
